A study of Mus musculus with 12 samples.

Results

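The mRNAs of 49 DNA repair genes were followed in activated CD4 T cells that lacked RNMT, the methyltransferase that adds the N-7 methyl group to the guanosine cap of mRNA. The genes were taken by symbol from a list that covers 7 repair pathways, and they are 49 of the 49585 genes counted. Naive CD4 T cells came from lymph nodes of female mice with *Rnmt* fl/fl alleles, in which loxP sites flank exon 3, and were cultured for 20 h on plates coated with antibodies to CD3 (5 ug/ml) and CD28 (1 ug/ml). *Rnmt* cKO cells carried a CD4cre transgene, which is switched on during thymic development and so removes the gene before the cells mature, and control cells carried the same floxed alleles without Cre. Cells of both genotypes received 0.1 mg/ml cycloheximide for 1 min before lysis, and the ages of the mice are not given in the sources used here. Each culture gave total cytoplasmic RNA and ribosome protected fragments (RPF, the stretches of mRNA that ribosomes shield from nuclease), with 3 control and 3 *Rnmt* cKO libraries of each kind. Gene counts summed to 15079703 to 22629563 in each total RNA library and to 4123271 to 10661356 in each RPF library, of which *Rnmt* cKO replicate 3 was the shallowest. The labels do not say that replicates came from separate mice, so p-values measure the spread between these libraries, which may be technical.

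Double-strand breaks are repaired either by homologous recombination, which copies an intact sister sequence, or by non-homologous end joining, which ligates the ends directly. The kinases ATM and ATR sense breaks and stalled forks and act through CHK2 and CHK1, the Fanconi anemia proteins resolve crosslinks between strands, and the mismatch, base excision and nucleotide excision pathways replace wrong, damaged or bulky bases. T cells that enter division after activation copy their whole genome within hours, and several repair genes are expressed with the S phase program.

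The labels were checked on *Rnmt* itself. *Rnmt* stood at 95.3, 93.9 and 94.1 CPM (reads of the gene, scaled by library size to a common total) in the control libraries of total RNA and at 29.3, 32.3 and 30.3 CPM in those of *Rnmt* cKO. In RPF it stood at 104, 87.7 and 98.7 CPM in control and at 10.5, 10.3 and 9.56 CPM in *Rnmt* cKO, so all 6 libraries labelled *Rnmt* cKO had the lower level. The log2 fold change was -1.62 ± 0.06 (SE, 3 against 3 libraries) in total RNA and -3.24 ± 0.10 in RPF.

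The repair genes did not move as 1 group. In total RNA 20 of the 49 fell and 10 rose, in RPF 12 fell and 2 rose, and in TE, the change of RPF relative to total RNA, 5 fell and 1 rose. *Fanci*, *Mutyh*, *Prkdc* and *Atr* were among the genes that lost mRNA, *Brca2* and *Rad51d* gained it in both kinds of library, and *Nbn*, *Trp53bp1* and *Pms2* gained total RNA while losing RPF. Some of these calls were less firm. Those of *Trp53bp1* in total RNA and of *Brca2*, *Rad51d* and *Pms2* in RPF were lost in several fits without 1 replicate. These calls were made by edgeR's quasi-likelihood test, with adjusted p over all genes. Of 11519 genes tested in total RNA, 54.2% passed the threshold (28% lower, 26.2% higher in *Rnmt* cKO), and 61.2% of the repair genes did. In RPF 29.8% of 11428 genes passed (15.7% lower, 14.1% higher), and 28.6% of the repair genes. In TE 9.79% of 10668 genes passed (6.57% lower, 3.22% higher), and 12.2% of the repair genes. Taken over both directions, the share of repair genes called was thus near that of all genes in each comparison. By direction, 20 fell and 10 rose in total RNA against 3223 and 3021 over all genes. In RPF 12 fell and 2 rose against 1799 and 1610, and in TE 5 and 1 against 701 and 343. The difference in direction was not tested. For total RNA their median log2 change was -0.16 against -0.0041 over all genes tested, for RPF -0.09 against 0.0071, and for TE 0.01 against 0.03. Without 1 replicate the medians of the repair genes ran from -0.208 to -0.0813 in total RNA, from -0.131 to -0.0575 in RPF and from -0.0185 to 0.0489 in TE, where the sign changed. The effect of a covariate for the level of B cell markers, which differed between the libraries, is given beside several genes and in full with those markers. Under it the calls of *Brca2* in both kinds, of *Trp53bp1* in total RNA and of *Nbn* and *Pms2* in RPF were lost. All 49 passed the filter on low counts in the 3 comparisons. The libraries give relative abundance only, and in such bulk samples fewer cells of a type and less RNA per cell cannot be told apart. The paper measured less mRNA per activated cell in *Rnmt* cKO than in control. It warns that falls of single genes are therefore underestimated and rises overestimated in the sequencing. Rises and falls here are relative to the other RNA of a library.

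**Figure D1:**
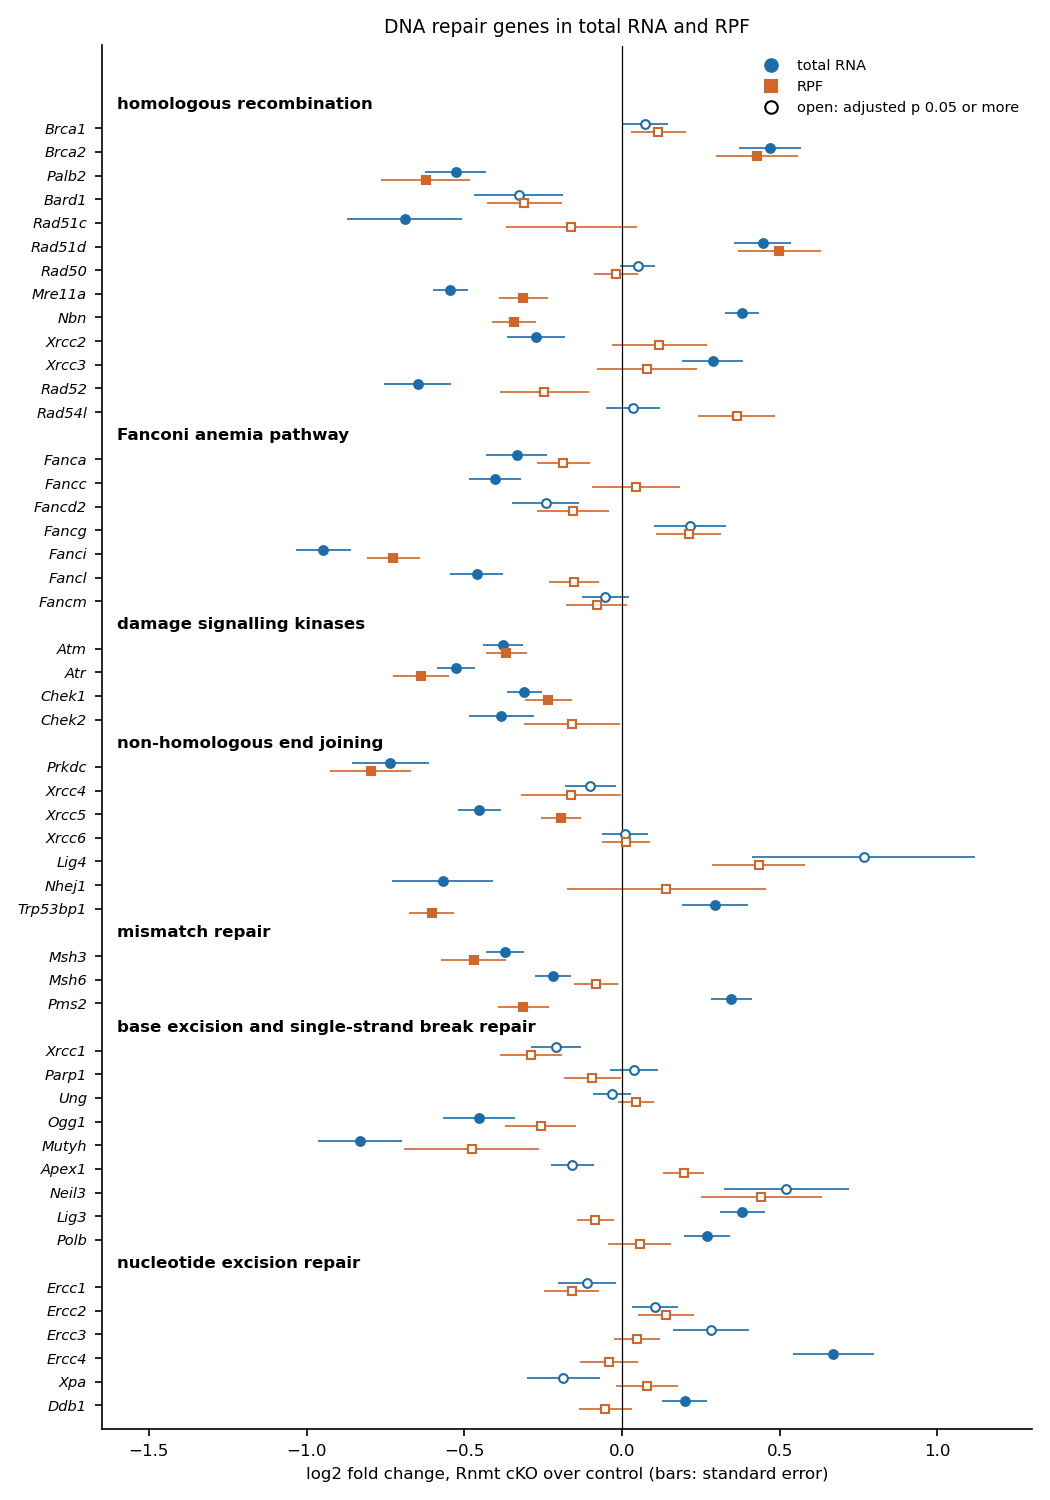
Log2 fold change of each repair gene, *Rnmt* cKO over control, in total RNA (circles) and RPF (squares), by pathway. Bars are standard errors over 3 and 3 libraries, and open symbols have an adjusted p of 0.05 or more. The 4 damage signalling kinases all lie left of 0, whereas *Nbn*, *Trp53bp1* and *Pms2* have their symbols on opposite sides.

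In control cells the members spanned a wide range of abundance. Per kilobase of exon in total RNA, the scale on which levels of different genes are compared here, *Apex1*, the main endonuclease at abasic sites, was the highest at 149.9 CPM per kb (mean of 3 control libraries), followed by *Ddb1*, part of the ubiquitin ligase that recognises ultraviolet damage, at 101 and *Parp1*, the sensor of strand breaks, at 82.8. *Lig4* at 1.36 and *Rad51c* at 1.37 CPM per kb were the lowest. The median of the 10268 protein-coding genes tested in total RNA, which leaves out those under the filter, was 9.93.

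The damage signalling kinases fell together. In total RNA 4 of 4 were lower in *Rnmt* cKO, with a median log2 fold change of -0.38, and 3 of them were lower in RPF as well (median -0.30). Of all genes tested, 28% were lower in total RNA and 15.7% in RPF. *Atr*, the kinase of stalled forks, stood at 113, 122 and 122 CPM in the control libraries of total RNA and at 81.8, 86.2 and 79.7 CPM in *Rnmt* cKO. Its RPF were 80.5, 77.0 and 77.4 CPM in control and 52.1, 54.1 and 44.1 CPM in *Rnmt* cKO. The groups did not overlap in either kind, and the log2 fold changes were -0.53 ± 0.06 (SE; adjusted p = 0.00024) and -0.64 ± 0.09 (adjusted p = 0.00144). *Atm*, the kinase of double-strand breaks, was at 224, 244 and 249 CPM in control and 190.3, 188 and 175 CPM in *Rnmt* cKO total RNA. Its RPF fell from 223, 197 and 218 to 161, 167 and 167 CPM. All *Rnmt* cKO libraries were again below all controls, with log2 fold changes of -0.38 ± 0.06 (adjusted p = 0.00162) and -0.37 ± 0.07 (adjusted p = 0.00444). *Chek2*, the effector of ATM, fell in total RNA from 20.9, 21.8 and 18.7 to 17.4, 14.4 and 15.4 CPM, a log2 fold change of -0.38 ± 0.10 (adjusted p = 0.014). Its RPF overlapped, at 15.1, 15.9 and 17.5 CPM in control and 12.8, 13.7 and 17.4 CPM in *Rnmt* cKO. *Chek1*, the effector of ATR, fell by 0.31 in total RNA and by 0.23 in RPF on the log2 scale, the latter at an adjusted p of 0.0459. The *Chek2* call in total RNA was lost without control replicate 1 (adjusted p = 0.0504) or 2 (0.0535), and the *Chek1* call in RPF was lost without each control replicate and without *Rnmt* cKO replicates 1 and 3, at adjusted p of 0.0581 to 0.125. With the B cell marker covariate the calls of *Chek2* in total RNA (adjusted p = 0.139) and of *Atm* (0.0511) and *Chek1* (0.174) in RPF were lost as well, which left 3 of 4 in total RNA and *Atr* in RPF. None of the 4 passed the threshold in TE by edgeR, at an unadjusted p under 0.05 or by DESeq2, where their log2 changes were between -0.11 and 0.21. The other genes of damage signalling on a separate list, such as *Rad17* and *Rad1* of the checkpoint clamp and its loader, gave another count: of 10 tested in total RNA none fell and 2 rose, and of 9 in RPF none fell and 2 rose.

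**Figure D2:**
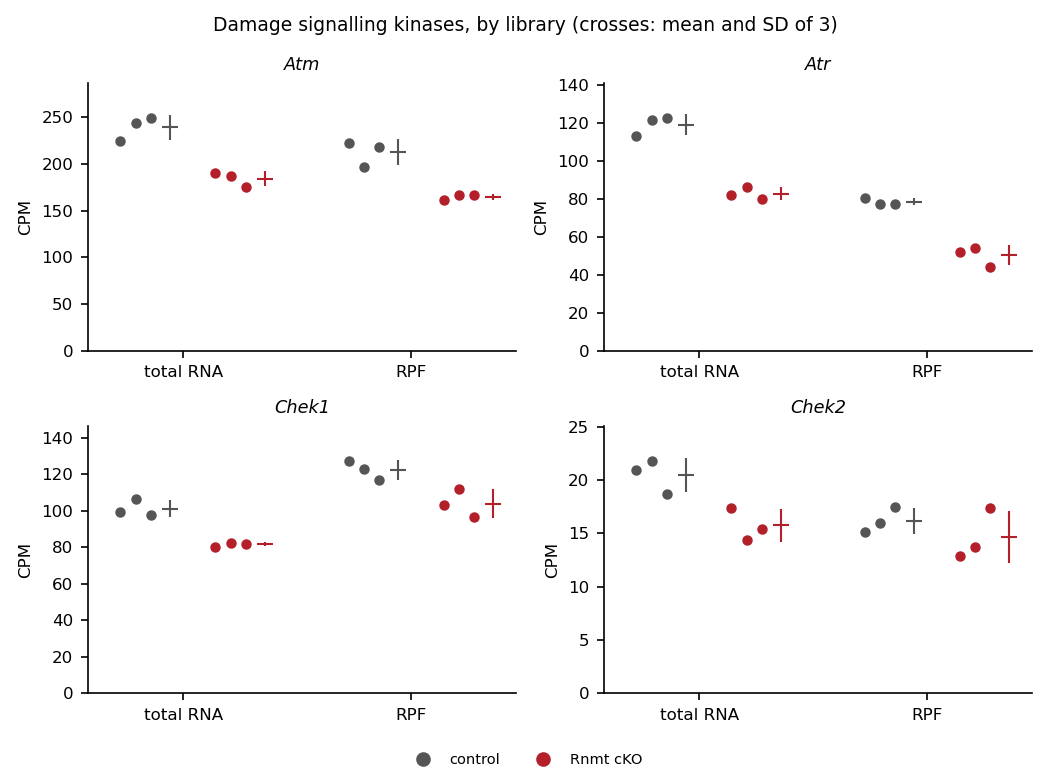
CPM of the 4 damage signalling kinases in each library of total RNA and RPF, in control (grey) and *Rnmt* cKO (red); points are libraries and crosses the mean and SD of 3. The genotypes separate in every panel except for the RPF of *Chek2*.

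Homologous recombination genes went both ways. Of 13, 5 fell and 4 rose in total RNA, and 3 fell and 2 rose in RPF, with medians of 0.04 and -0.02 that changed sign when 1 replicate was left out (-0.0193 to 0.0818 and -0.0699 to 0.0199). The share called was 69.2% in total RNA and 38.5% in RPF, against 54.2% and 29.8% of all genes tested. *Brca2*, a mediator of homologous recombination, rose from 60.2, 71.0 and 64.3 to 89.2, 101 and 80.2 CPM in total RNA (log2 0.47 ± 0.10; adjusted p = 0.00471). In RPF *Brca2* was at 52.9, 61.1 and 48.4 CPM in control and 78.3, 79.1 and 59.1 CPM in *Rnmt* cKO. The total RNA libraries were separate, whereas in RPF the third *Rnmt* cKO library lay within the controls and the log2 fold change was 0.43 ± 0.13 (adjusted p = 0.039). With the B cell marker covariate *Brca2* passed in neither kind (adjusted p = 0.063 and 0.344). *Brca1*, which promotes resection and helps to recruit other factors, gave 82.6, 93.5 and 80.4 CPM in control and 93.5, 90.0 and 86.3 CPM in *Rnmt* cKO total RNA. Its RPF were 50.8, 53.8 and 48.6 against 55.7, 59.2 and 50.3 CPM, and the groups overlapped in both kinds (log2 0.07 ± 0.07 and 0.12 ± 0.09, adjusted p = 0.426 and 0.349). *Palb2*, the bridge between these 2 proteins, fell in total RNA (log2 -0.53 ± 0.10) and in RPF (-0.62 ± 0.14). Of the genes that assist strand exchange, *Rad51d* rose in both kinds (0.45 ± 0.09 and 0.50 ± 0.13), *Xrcc3* rose in total RNA (0.29 ± 0.10), and *Rad51c* and *Xrcc2* fell in total RNA (-0.69 ± 0.18 and -0.27 ± 0.09). *Rad52*, an annealing factor, fell in total RNA as well (-0.65 ± 0.11). *Bard1* and *Rad54l* did not pass the threshold in either kind in the main fit. In total RNA *Bard1* passed without the filter (adjusted p = 0.0178), with the replicate block (0.0438) and without *Rnmt* cKO replicate 2 (0.00582). In RPF it passed without the filter (0.0369) and without *Rnmt* cKO replicate 1 (0.0273). *Rad54l* passed in RPF in 5 alternative fits (adjusted p = 0.0206 to 0.0492). The RPF call of *Brca2* was also lost without control replicates 1 and 3 and *Rnmt* cKO replicates 1 and 2 (adjusted p = 0.109 to 0.123), and that of *Rad51d* without control replicates 1 and 3 and *Rnmt* cKO replicates 2 and 3 (adjusted p = 0.052 to 0.0738). In total RNA the call of *Xrcc2* was lost without any replicate but control 3 (adjusted p = 0.0609 to 0.133), that of *Xrcc3* without any but *Rnmt* cKO replicate 2 (0.0607 to 0.113) and that of *Rad51c* without control replicate 2 (0.0519).

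The 3 genes of the MRN complex, which holds and trims broken ends and activates ATM, each took a different course. *Mre11a*, the nuclease, fell from 108, 112 and 104 to 76.1, 74.2 and 71.8 CPM in total RNA (log2 -0.54 ± 0.06; adjusted p = 0.00015). Its RPF fell from 111, 107 and 95.6 to 85.7, 86.9 and 79.2 CPM (log2 -0.31 ± 0.08; adjusted p = 0.0183), a call lost without control replicate 1 (adjusted p = 0.0563). *Rad50*, the ATPase that bridges the ends, gave log2 fold changes of 0.05 ± 0.06 and -0.02 ± 0.07, with overlapping groups in both kinds. *Nbn*, the subunit that binds ATM, rose in total RNA from 83.3, 85.0 and 81.9 to 113, 104 and 109 CPM. In RPF *Nbn* fell from 102, 115 and 102 to 83.2, 83.6 and 84.4 CPM. Neither kind had overlapping groups, and the opposite changes (log2 0.38 ± 0.05 and -0.34 ± 0.07) gave a TE change of -0.72 ± 0.09 (adjusted p = 0.000168).

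Within a library, the ratio of 1 subunit to its partner does not depend on library scaling. For 12 pairs of partners, chosen after their values were seen and so given without a test, the ratio separated the genotypes in 9 pairs in total RNA and in 9 in RPF. Of all 1176 pairs that the 49 genes can form, 63.4% separated in total RNA and 49.7% in RPF, so separation by itself was common. The log2 ratio of *Mre11a* to *Rad50* in total RNA was 0.03, 0.02 and -0.03 in control and -0.61, -0.58 and -0.57 in *Rnmt* cKO, and that of *Nbn* to *Rad50* was higher in *Rnmt* cKO by 0.33 in total RNA and lower by 0.32 in RPF. The widest gap in RPF was that of *Palb2* to *Brca2*, with mean log2 ratios of -1.24 ± 0.04 (SD, n = 3) in control and -2.28 ± 0.17 in *Rnmt* cKO. In total RNA the ratio of *Rad51c* to *Rad51d* differed by -1.15 and that of *Palb2* to *Brca2* by -0.99. For *Xrcc4* and *Lig4*, *Msh3* and *Msh6*, and *Ercc3* and *Ercc2* the groups overlapped in total RNA.

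**Figure D3:**
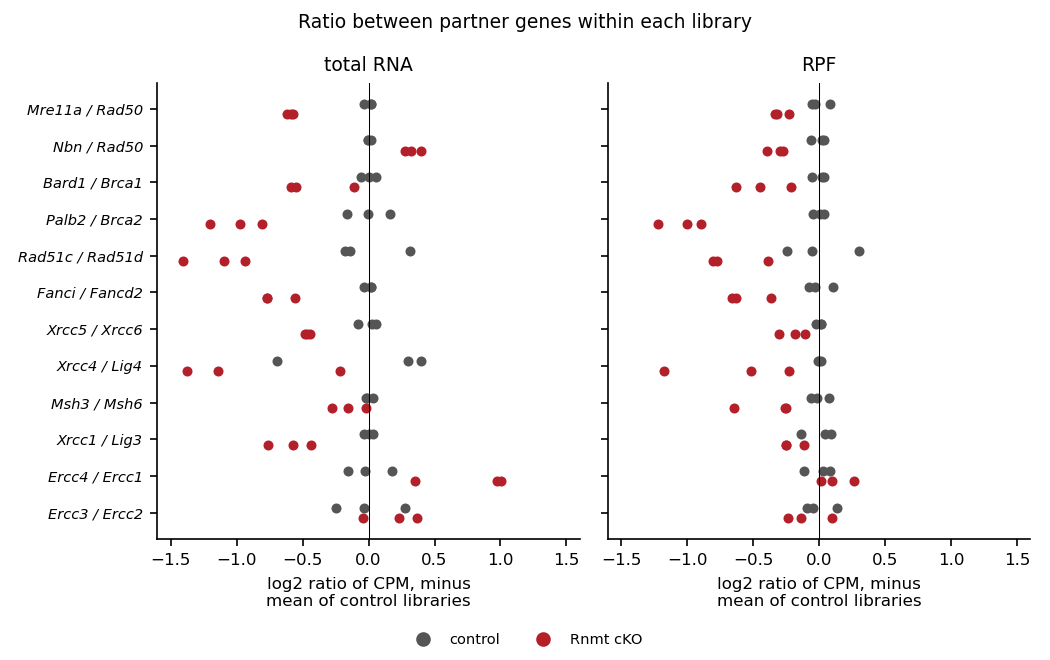
Log2 ratio of the CPM of 2 partner genes in each library, less the mean of the control libraries, in total RNA (left) and RPF (right); grey points are control and red points *Rnmt* cKO libraries. *Palb2* over *Brca2* is lower in all *Rnmt* cKO libraries in both panels, and *Nbn* over *Rad50* is higher in total RNA and lower in RPF.

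Of 7 end joining genes, 3 fell and 1 rose in total RNA and 3 fell in RPF. The share called was 57.1% in total RNA and 42.9% in RPF, against 54.2% and 29.8% of all genes tested. *Prkdc*, the catalytic subunit of DNA-PK, fell in total RNA from 65.7, 73.6 and 73.2 to 38.7, 51.3 and 37.6 CPM and in RPF from 68.8, 78.2 and 65.6 to 41.8, 46.3 and 32.9 CPM. All *Rnmt* cKO libraries were below all controls, at log2 fold changes of -0.73 ± 0.12 (adjusted p = 0.00146) and -0.80 ± 0.13 (adjusted p = 0.00282). The 2 subunits of Ku, the ring that threads onto a broken end, differed. *Xrcc5*, which codes for Ku80, fell in total RNA from 111, 121 and 106 to 78.3, 82.9 and 85.6 CPM (log2 -0.45 ± 0.07; adjusted p = 0.000917). Its RPF were at 195, 176 and 176 CPM in control and at 162, 159 and 156 CPM in *Rnmt* cKO (-0.19 ± 0.06; adjusted p = 0.0485), and leaving out any of the 6 replicates lost that call (adjusted p = 0.0532 to 0.13). *Xrcc6*, which codes for Ku70, was at 97.4, 98.9 and 84.7 CPM in control and 90.8, 93.8 and 98.0 CPM in *Rnmt* cKO total RNA. Its RPF were 143, 130.1 and 133 CPM against 137, 147 and 125 CPM, so that both pairs of groups overlapped and both log2 fold changes were 0.01. *Nhej1*, the ligase cofactor XLF, fell in total RNA (-0.57 ± 0.16) at a level under 5 CPM, a call lost without control replicate 2 (adjusted p = 0.0659) or *Rnmt* cKO replicate 1 (0.0687) or 2 (0.0518), and *Xrcc4* and *Lig4* did not pass the threshold. *Lig4* was uneven in total RNA, at 4.8, 5.7 and 10.9 CPM in control and 15.4, 13.6 and 7.5 CPM in *Rnmt* cKO. Its highest libraries, control replicate 3 and *Rnmt* cKO replicates 1 and 2, also carried the most B cell transcripts, and a link was not tested. In total RNA *Lig4* passed by DESeq2 (adjusted p = 0.0251) and without the filter (4.11e-06). There it also passed without control replicate 3 (0.0166) or *Rnmt* cKO replicate 3 (0.0218).

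*Trp53bp1* codes for 53BP1, which shields broken ends from resection and is needed for antibody class switching. Its total RNA was at 63.8, 59.8 and 69.3 CPM in control and at 80.6, 88.5 and 67.7 CPM in *Rnmt* cKO. Its RPF fell from 135, 139 and 122 to 84.8, 86.5 and 89.0 CPM. The total RNA groups overlapped, through the third replicate of each, and the log2 fold change of 0.29 ± 0.11 had an adjusted p of 0.0435, which was lost without control replicate 1 (adjusted p = 0.116) or 2 (0.144) and without *Rnmt* cKO replicate 1 (0.0947) or 2 (0.0891). With the B cell marker covariate it was 0.03 (adjusted p = 0.769). The RPF groups were far apart (-0.60 ± 0.07, adjusted p = 0.000685). The TE change of -0.90 ± 0.13 (adjusted p = 0.000833) was the most negative of the repair genes without the covariate. With the covariate the TE change was -0.53 (adjusted p = 0.0381), and those of *Pms2* (-0.74) and *Nbn* (-0.68) were more negative.

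Of 7 Fanconi anemia genes, 4 fell and none rose in total RNA, with a median of -0.33, and 1 fell in RPF. The share called was 57.1% in total RNA and 14.3% in RPF, against 54.2% and 29.8% of all genes tested. *Fanci*, a subunit of the clamp that is ubiquitylated at a crosslink, fell from 53.4, 59.7 and 49.1 to 27.9, 29.3 and 26.9 CPM in total RNA. Its RPF fell from 83.2, 81.5 and 71.5 to 49.7, 46.7 and 46.3 CPM. The groups were apart in both kinds, and the log2 fold changes of -0.95 ± 0.09 (adjusted p = 8.96e-05) and -0.73 ± 0.08 (adjusted p = 0.000648) made it the member with the lowest total RNA fold change. *Fancd2*, the other subunit, gave -0.24 ± 0.11 and -0.15 ± 0.11, neither past the threshold. In total RNA it passed without the filter (adjusted p = 0.0443) and without *Rnmt* cKO replicate 2 (0.0497). *Fancc*, a core complex gene, fell in total RNA from 23.7, 21.7 and 24.4 to 18.1, 17.9 and 16.9 CPM (-0.40 ± 0.08; adjusted p = 0.00382). Its RPF overlapped, at 32.3, 23.6 and 26.5 CPM in control and 28.9, 30.7 and 25.3 CPM in *Rnmt* cKO. *Fanca*, also of the core complex, and *Fancl*, the ubiquitin ligase, fell in total RNA (-0.33 ± 0.10 and -0.46 ± 0.08), and *Fancg* and *Fancm* did not pass the threshold. The *Fanca* call was lost without control replicate 1 or 2 or *Rnmt* cKO replicate 3 (adjusted p = 0.0562 to 0.0725), and *Fancg* passed in total RNA without control replicate 2 (0.0488).

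The 3 mismatch repair genes all changed in total RNA, where 54.2% of all genes tested did. *Msh3*, which recognises loops of several bases, fell from 68.4, 69.6 and 66.9 to 53.3, 50.2 and 55.0 CPM in total RNA and from 54.8, 62.7 and 53.4 to 44.5, 36.9 and 42.2 CPM in RPF. Both differences were larger than the spread between replicates (log2 -0.37 ± 0.06, adjusted p = 0.00141; and -0.47 ± 0.10, adjusted p = 0.0106). *Msh6*, which recognises single mismatches, fell in total RNA (-0.22 ± 0.06), and its RPF gave -0.08 ± 0.07 (adjusted p = 0.408). *Pms2*, the endonuclease subunit, rose in total RNA from 70.6, 68.1 and 63.4 to 88.1, 81.7 and 87.2 CPM. In RPF *Pms2* fell from 53.2, 55.3 and 50.6 to 42.2, 45.0 and 40.5 CPM. The libraries of the genotypes were separate in both kinds, with log2 fold changes of 0.35 ± 0.06 and -0.31 ± 0.08 and a TE change of -0.66 ± 0.10 (adjusted p = 0.000856); the RPF call was lost without control replicates 1 and 2 and *Rnmt* cKO replicates 1 and 3 (adjusted p = 0.0505 to 0.069), while the TE call was kept in each of these fits.

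Among the 9 members of base excision and single-strand break repair, none passed the threshold in RPF in edgeR, against 29.8% of all genes tested. At an unadjusted p under 0.05 there were 3 (*Xrcc1*, *Apex1* and *Neil3*), and by DESeq2 there was 1 (*Apex1*). In total RNA 2 of the members fell and 2 rose, a share called of 44.4% against 54.2% of all genes tested. Of 9 other genes of this pathway tested, 4 fell and 2 rose in total RNA, and 3 fell and 2 rose in RPF. *Mutyh*, the glycosylase that removes adenine opposite oxidised guanine, fell from 6.62, 6.39 and 6.67 to 3.86, 3.19 and 4.01 CPM (log2 -0.83 ± 0.13; adjusted p = 0.00125). Its RPF overlapped, at 15.5, 12.6 and 16.8 CPM in control and 8.99, 9.45 and 14.7 CPM in *Rnmt* cKO. *Ogg1*, the glycosylase for oxidised guanine itself, fell in total RNA (-0.45 ± 0.11), and *Polb*, the gap-filling polymerase, rose (0.27 ± 0.07), a call lost without control replicate 2 (adjusted p = 0.0619). *Lig3*, the ligase that seals single-strand breaks with XRCC1, rose in total RNA from 72.2, 78.9 and 73.9 to 90.4, 105 and 97.5 CPM. Its RPF were 100.1, 105 and 103 CPM in control and 94.8, 98.1 and 97.6 CPM in *Rnmt* cKO. The total RNA difference of 0.38 ± 0.07 (adjusted p = 0.00275) was thus not matched in RPF (-0.08 ± 0.06; adjusted p = 0.316), and TE changed by -0.47 ± 0.09 (adjusted p = 0.00598). *Apex1* had 192, 194 and 171 CPM in control and 161, 162 and 177 CPM in *Rnmt* cKO total RNA. In RPF it had 339, 307 and 314 against 376, 377 and 346 CPM. Neither difference passed the threshold (adjusted p = 0.0856 and 0.0539), while TE rose by 0.35 ± 0.10 on the log2 scale (adjusted p = 0.0437), a call that was lost in 5 of the 6 fits without 1 replicate (adjusted p = 0.0546 to 0.208) and, at 0.14, with the B cell marker covariate (0.661). *Parp1* was at 321, 351 and 289.9 CPM in control and 329, 324 and 335 CPM in *Rnmt* cKO total RNA. Its RPF were 478, 553 and 452 against 458, 497 and 433 CPM, with overlap in both kinds (log2 0.04 ± 0.08 and -0.09 ± 0.09). *Xrcc1*, *Ung* and *Neil3* did not pass the threshold either in the main fit. *Xrcc1* passed in total RNA with both strands counted (adjusted p = 0.0489) and with protein-coding genes only (0.0481). In RPF it passed without the filter (0.0263), with the replicate block (0.0434) and without control replicate 1 (0.0277). In total RNA *Neil3* gave a log2 fold change of 0.52 ± 0.20 (adjusted p = 0.055). There it passed without TMM (0.0376), by DESeq2 (0.0302), by the exact test (0.0334), without the filter (0.00473) and with the replicate block (0.039). It also passed without control replicate 2 (0.0255) or *Rnmt* cKO replicate 3 (0.0148).

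None of the 6 nucleotide excision repair members fell in total RNA, and none passed the threshold in RPF. In RPF 0 of them had an unadjusted p under 0.05 in edgeR and 0 passed by DESeq2. Of all genes tested, 28% fell in total RNA and 29.8% passed in RPF. Of 12 other genes of this pathway on a separate list, 6 fell and 3 rose in total RNA, and 3 fell and 2 rose in RPF. *Ercc4*, which codes for the XPF nuclease, rose in total RNA from 16.5, 16.5 and 18.0 to 30.7, 28.7 and 22.1 CPM (log2 0.67 ± 0.13; adjusted p = 0.00293). Its RPF overlapped, at 41.6, 47.8 and 42.3 CPM in control and 39.9, 44.3 and 43.6 CPM in *Rnmt* cKO (-0.04 ± 0.09). TE fell by 0.71 ± 0.16 on the log2 scale (adjusted p = 0.0156), a call lost without control replicate 1 (adjusted p = 0.0618), control replicate 2 (0.0875) or *Rnmt* cKO replicate 1 (0.0813). With the B cell marker covariate it was -0.35 (adjusted p = 0.464). *Ercc1*, the partner of XPF, was at 30.6, 28.1 and 26.7 CPM in control and 25.5, 24.4 and 29 CPM in *Rnmt* cKO total RNA. Its RPF were 49, 54.4 and 55.2 against 47.6, 49.9 and 43.9 CPM, and both kinds overlapped. *Ddb1* rose in total RNA (0.20 ± 0.07, adjusted p = 0.0464). That call was lost when any control library or the second *Rnmt* cKO library was left out (adjusted p = 0.0632 to 0.158). *Ercc2*, *Ercc3* and *Xpa* did not pass the threshold in edgeR. However, *Ercc3* (log2 0.28, adjusted p = 0.0764 in total RNA) passed there by DESeq2 (0.048), without TMM (0.0384) and without the filter (0.025). It also passed in total RNA without control replicate 3 (0.0175) or *Rnmt* cKO replicate 3 (0.0254).

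The 6 genes with a TE call thus came from 5 pathways. The 5 with lower TE all had higher total RNA in *Rnmt* cKO, and 3 of them had lower RPF. Over all genes, 612 of 701 with lower TE (87.3%) were higher in total RNA, and 93 (13.3%) were also lower in RPF. TE and total RNA share libraries, so a high total RNA value lowers TE by construction. Rises in total RNA with falls in RPF were found in 94 of 10668 genes (0.881%). *Nbn* lies at chr4:15957925-15992589, *Trp53bp1* at chr2:121193281-121271407, *Pms2* at chr5:143909964-143933968, *Lig3* at chr11:82781108-82804274, *Ercc4* at chr16:13109684-13150617 and *Apex1* at chr14:50924968-50927139 (GRCm38, GENCODE vM21), all as protein-coding genes. Of the exon bases of *Apex1*, 70.8% overlap exons of *Pip4p1* on the opposite strand, and opposite-strand overlaps cover 27.9% of *Lig3* (*Rffl*) and 22.1% of *Trp53bp1* (*Tubgcp4*). The 6 TE calls were kept with counts of both strands. In *Pms2*, 6.62% of exon bases are shared with *Gm42421* on its own strand, where reads cannot be assigned to 1 gene.

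**Figure D4:**
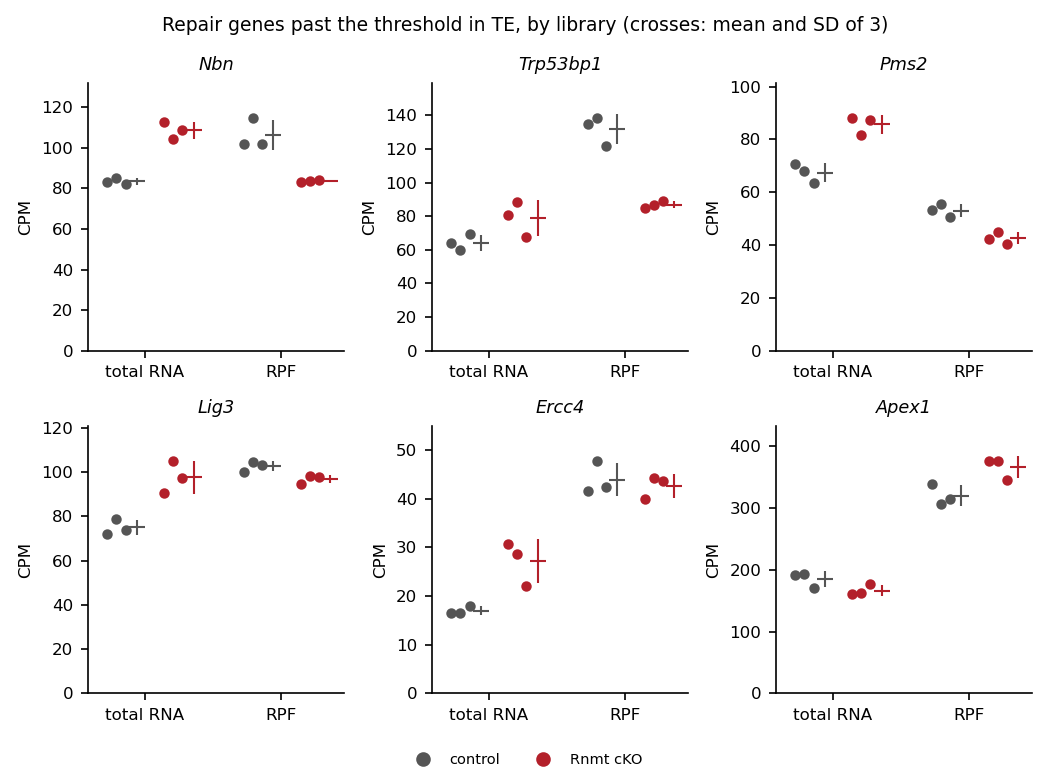
CPM of the 6 repair genes past the threshold in TE, in each library of total RNA and RPF; grey points are control and red points *Rnmt* cKO libraries, and crosses the mean and SD of 3. *Nbn* and *Pms2* are higher in total RNA and lower in RPF in all *Rnmt* cKO libraries, and *Trp53bp1* overlaps in total RNA.

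**Figure D5:**
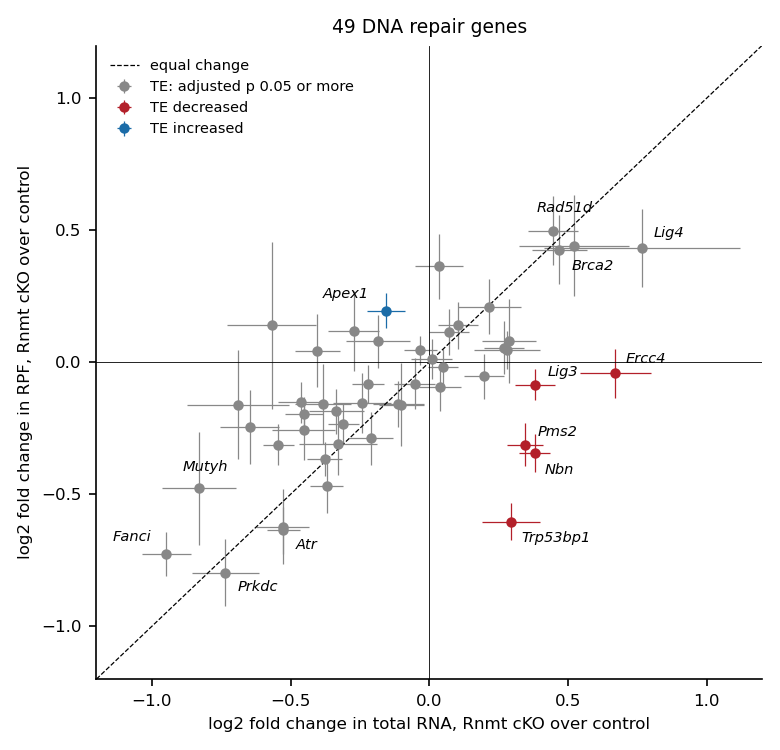
Log2 fold change in RPF against that in total RNA for the 49 repair genes, with standard errors as bars; the dashed line marks equal change in both. The 5 genes with lower TE (red) lie to the right of the line, *Apex1* (blue) lies above it, and *Fanci*, *Prkdc* and *Atr* lie at the lower left.

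The libraries also differed in other transcripts, and these values are given beside the changes of the repair genes. The B cell markers (8 genes, none at 0 in all libraries) summed to 10.2, 6.8 and 37.5 CPM in control and 97.3, 117 and 21.4 CPM in *Rnmt* cKO total RNA. In RPF the sums were 13.3, 8.9 and 45.1 against 144, 157 and 25.3 CPM, and *Ms4a1*, the most abundant, reached 41.0 CPM in total RNA. Thus control replicate 3 and *Rnmt* cKO replicates 1 and 2 carried the most B cell transcripts, and 3 of 6 B cell markers tested rose in total RNA. With the marker level as a covariate, 19 of the 30 calls in total RNA, 5 of the 14 in RPF and 3 of the 6 in TE were kept and none changed direction, while the calls over all genes went from 6244 to 4696, from 3409 to 1070 and from 1044 to 368. *Nbn* (log2 TE change -0.68; adjusted p = 0.00928) and *Pms2* (-0.74; 0.015) kept their TE values. *Trp53bp1* went to 0.03 in total RNA (adjusted p = 0.769) and -0.53 in TE (0.0381). *Lig3* stayed at -0.47 in TE with an adjusted p of 0.106, while *Ercc4* went to -0.35 (0.464) and *Apex1* to 0.14 (0.661). The calls of *Fanci*, *Atr* and *Prkdc* were kept in total RNA and in RPF, and those of *Rad51d* and *Trp53bp1* were kept in RPF. The other 9 calls in RPF were lost, those of *Brca2*, *Palb2*, *Mre11a*, *Nbn*, *Atm*, *Chek1*, *Xrcc5*, *Msh3* and *Pms2*, although their log2 fold changes remained at 75.1 to 119.9% of those without the covariate. In total RNA 11 calls were lost, those of *Brca2*, *Rad51c*, *Xrcc2*, *Xrcc3*, *Fanca*, *Chek2*, *Nhej1*, *Trp53bp1*, *Ogg1*, *Polb* and *Ddb1*. Of these, *Polb* (0.27), *Xrcc3* (0.29) and *Fanca* (-0.35) had about the same log2 fold change as before, *Ddb1*, *Brca2* and *Chek2* had 85.2, 77.1 and 76.2% of it, and *Nhej1*, *Rad51c*, *Ogg1* and *Xrcc2* had 61.2, 56.4, 53.1 and 50.4%. Reads outside annotated exons also differed, at 5.34, 5.63 and 6% of all reads in the control and 8.21, 8.14 and 7.24% in the *Rnmt* cKO libraries of total RNA, and their part in the result was not tested.

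Other cell type markers were low or belonged to T cells. *Cd4* was at 294 ± 22.4 CPM (SD, n = 3) in *Rnmt* cKO and 329 ± 18.0 CPM in control total RNA, and T cell markers summed to 3721 to 3932 CPM in control and 2867 to 3272 CPM in *Rnmt* cKO, with 5 of 8 lower. *Cd3g* and *Lck* fell most among them (log2 -1.23 and -0.90). *Cd8a* and *Cd8b1* together gave 9.8 to 41.6 CPM, and 7 of 8 myeloid markers were under 1 CPM in all libraries. NK markers summed to 5.6 to 7.4 CPM in control and 22.8 to 39.1 CPM in *Rnmt* cKO, where *Eomes*, a T-box factor that T cells express too, rose from 2.89 to 25.4 CPM. *Ncr1* and *Klrb1c*, more restricted to NK cells, were too low to be tested, with mean levels of 0.0705 and 0.0179 CPM in control and 0.493 and 0.354 CPM in *Rnmt* cKO total RNA, and their groups did not overlap there. In RPF *Ncr1* was at 0.0815 CPM in control and 0.956 CPM in *Rnmt* cKO, again without overlap, and the part of NK cells in the results was not tested. The paper reports that cells for this footprinting experiment were sorted by magnet with a kit for naive CD4 T cells. B cell and NK cell transcripts were thus counted after that selection. Of the regulatory T cell markers *Ikzf2* and *Il2ra* rose, *Ctla4* gave -0.51 ± 0.20 on the log2 scale without passing the threshold (adjusted p = 0.0589), and *Foxp3*, which was not tested in total RNA, had mean levels of 0.797 CPM in control and 0.543 CPM in *Rnmt* cKO. Proliferation markers did not fall in total RNA: of 22 none fell and 4 rose (*Mki67*, *Ccna2*, *Plk1* and *Rrm2*), while in RPF 6 fell, among them *Mcm3* to *Mcm7*, and 2 rose. The share called was 18.2% in total RNA and 36.4% in RPF, against 54.2% and 29.8% of all genes tested. Of the 11 members known for expression in G1/S or S phase, 4 fell (*Fanca*, *Fanci*, *Chek1* and *Msh6*) and 1 rose (*Brca2*) in total RNA, with a median of -0.22. That was 45.5% of the 11, against the same 54.2%.

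Repair genes outside the 49 also went both ways. Of 80 tested in total RNA 23 fell and 19 rose, of 79 in RPF 13 fell and 8 rose, and in TE 5 fell and 2 rose, with medians of 0.02, -0.02 and 0.07. The shares called were 52.5, 26.6 and 8.86%, near the 54.2, 29.8 and 9.79% of all genes tested. *Wrn*, the helicase lost in Werner syndrome, and *Rad54b* fell in total RNA by 1.04 and 0.89 on the log2 scale and in RPF by 0.72 and 0.73. *Gtf2h1*, a TFIIH subunit, and *Sfr1*, a recombination accessory gene, rose in total RNA by 0.53 and 0.56. In RPF *Rad1* and *Nthl1*, the glycosylase for oxidised pyrimidines, had the smallest p among those that rose (log2 0.61 and 1.19; adjusted p = 0.000604 and 0.00122). *Sfr1* and *Brcc3*, part of a BRCA1 complex, had lower TE (-0.77 and -0.48), and *Rad1* and *Mpg*, the alkyladenine glycosylase, higher TE (0.49 and 0.47).

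The bases that begin each transcript sit next to the cap that RNMT methylates, so the annotated starts of the members with the largest called changes are shown: the lowest and highest in total RNA (*Fanci*, *Ercc4*) and the lowest and highest in TE (*Trp53bp1*, *Apex1*). Each run holds 15 bases before the start in lower case and the first 15 transcribed bases in capitals (RefSeq, GRCm38.p6).
Fanci: ctgggcaacggaagtGCGGCTGCGTGGAGT
Ercc4: cacttgtccccgcctCGATTCCTTTTCGGC
Trp53bp1: ccgatattgcgtgacGTGACGGGAAAAGGG
Apex1: gcggagccctcgaatCACGTGACCACACCA
These stretches are chr7:79392323-79392352 and chr16:13109721-13109750 on the plus strand, chr2:121271393-121271422 on the minus strand and chr14:50924934-50924963 on the plus strand. *Ercc4* and *Apex1* begin with C, and so do 5 of the 45 member promoters (11.1%) against 16.3% of all 32841. None of the 45 has a C followed by 4 pyrimidines, the start of mRNAs with a terminal oligopyrimidine tract, against 2.5% of all. The RefSeq start of *Trp53bp1* is the GENCODE vM21 start, that of *Fanci* lies 409 bases downstream and that of *Ercc4* 52 bases downstream of it.

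The E2F-like motif TTTNGCGC, searched on both strands from 250 bases before to 50 after the start, was found in the promoters of *Chek2*, *Msh3* and *Rad51c*, 6.67% of the 45 member promoters against 1.38% of all. The motif is shown in capitals in 30 bases around it.
Chek2: gtatccgtaggTTTAGCGCcactccactgg
Msh3: gccgtcaagTTTGGCGCGAAAtcgcagccc
Rad51c: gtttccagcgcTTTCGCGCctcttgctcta
These lie at chr5:110839977-110840006 on the plus strand, chr13:92355185-92355214 on the minus strand and chr11:87404477-87404506 on the minus strand, and in *Msh3* matches on both strands overlap. The CHR-like motif TTTGAA was found in *Bard1* alone, 2.22% of member promoters against 17.9% of all. These matches describe letters in the window and were not tested against the changes.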

How the data were processed

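The 12 libraries held total cytoplasmic RNA and ribosome protected fragments (RPF). The authors kept read 2 of each pair, removed adapters with Cutadapt and ribosomal RNA and tRNA reads with Bowtie, aligned to mm10 with STAR 2.5.2b and GENCODE vM12, and deposited raw counts of reads per gene. A deposited table of normalized signal values equalled the reverse-strand counts divided by 1 factor per library in 100% of its genes (relative tolerance 1e-06), so the reverse-strand counts were used; its fold change and p-value columns, which hold the authors' own comparisons, were not. Symbols, positions and exon lengths came from GENCODE vM21 (GRCm38), which held 49326 of the 49585 genes counted, and all 49 members were found by symbol.

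For each kind of library, genes that exceeded a CPM of 1 in 3 or more of 6 libraries were kept and tested in edgeR 4.0.16 (R 4.3.3) by its quasi-likelihood method, after TMM normalization and with Benjamini-Hochberg adjustment over all genes and a threshold of 0.05. For translation efficiency (TE), an interaction term between genotype and kind was fitted to the 12 libraries, in place of RiboDiff, which was not used here. The standard error was taken as the log2 fold change divided by the square root of F. CPM values used the TMM-scaled library size. The fits were repeated with DESeq2 1.42.0, with edgeR's exact test, without TMM, without the filter, with a minimum of 10 counts per library, with both strands counted, with protein-coding genes only, with a replicate block, without each replicate and, chosen after seeing the data, a covariate for the level of B cell markers. Steps were tested on simulated data. Python 3.11.15, pandas 2.3.3, numpy 2.4.6 and matplotlib 3.10.9 made the tables and figures.

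An exact permutation test of 3 against 3 could not go below 0.1. Replicates of a group differed beyond sampling noise, and none was counted as a repeat of another. Numbers paired the total RNA and RPF libraries of a genotype, since the deviations from group means correlated at 0.11 to 0.37 within each of the 6 pairs, and a block for these pairs changed no member call in TE.

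The members and all lists were chosen with earlier results of these data known. Values in every library are given for the member with the smallest p of its pathway in total RNA, RPF or TE and for *Brca1*, *Brca2*, *Atm*, *Atr*, *Prkdc*, *Trp53bp1*, *Parp1*, *Xrcc5* and *Xrcc6*; other members past the threshold are given by their fold change. Any further gene given with values, and the pairs of partner genes, were chosen after their values were seen. Promoter sequences came from RefSeq (GRCm38.p6), with entries for 41 members. Some genes of the lists are not reported here.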

Additional observations from a re-analysis of the deposited data

Results flagged for a closer look

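In 6 repair genes the genotype effect differed between RPF and total RNA by the interaction test over 12 libraries. The log2 difference, RPF change less total RNA change, was -0.72 for *Nbn*, -0.90 for *Trp53bp1*, -0.66 for *Pms2*, -0.47 for *Lig3*, -0.71 for *Ercc4* and 0.35 for *Apex1*. For *Nbn*, *Pms2* and *Trp53bp1* it kept its side of the threshold under every alternative run, whereas *Apex1* and *Ercc4* lost theirs in several fits without 1 replicate, and *Apex1* also without TMM, without the filter on low counts and with the replicate block. With the B cell covariate *Apex1* and *Ercc4* were lost at 40.9 and 49.1% of their log2 difference, and *Lig3* was lost at 100.6% of it.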

How the results depend on the processing

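No member call changed direction under any alternative. DESeq2 ended the calls of *Xrcc2*, *Xrcc3* and *Nhej1* in total RNA and of *Chek1*, *Xrcc5* and *Pms2* in RPF. It added *Lig4*, *Neil3* and *Ercc3* in total RNA and *Apex1* in RPF. The exact test of edgeR ended those of *Ddb1* in total RNA and *Chek1* and *Xrcc5* in RPF, and added *Neil3* in total RNA. The replicate block ended those of *Xrcc2*, *Xrcc3*, *Trp53bp1* (adjusted p = 0.108) and *Ddb1* in total RNA, *Xrcc5* in RPF and *Apex1* in TE. It added *Bard1* and *Neil3* in total RNA and *Rad54l* and *Xrcc1* in RPF. Between 4 and 5 members had lower TE when a replicate was left out, and *Nbn*, *Trp53bp1*, *Pms2* and *Lig3* were among them in each of these fits. Leaving out 1 replicate gave 9 to 14 members past the threshold in RPF (14 with all), 0 to 4 increased in RPF (2) and 0 to 2 increased in TE (1), and medians of -0.208 to -0.0813 over all members and -0.379 to -0.251 over the Fanconi anemia genes in total RNA and of -0.209 to -0.0765 over the Fanconi anemia genes in RPF. Members increased in RPF numbered 4 with at least 10 counts in every library and 5 with protein-coding genes only. Members increased in TE numbered 0 without TMM, without a filter on low counts and with the replicate block. With the B cell covariate, chosen after seeing the data, 19 members passed in total RNA, 5 of them increased; 5 passed in RPF, 4 decreased and 1 increased; and 3 passed in TE, 3 decreased and 0 increased; the covariate costs a degree of freedom among 6 libraries. Replicate numbers did not pair the genotypes: same-numbered deviations correlated at -0.24, -0.18 and -0.49 in total RNA and 0.30, -0.11 and 0.13 in RPF, and not every library correlated best with its own number. With the replicate block 26 of 30 calls were kept in total RNA, 13 of 14 in RPF and 5 of 6 in TE. The RPF libraries, with 4123271 to 10661356 counts, limit the calls of members under 5 CPM such as *Nhej1*.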
